A study of Eriocheir sinensis with 6 samples.

Results

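In muscle of Eriocheir sinensis, the Chinese mitten crab, 42 gene models were mostly low or undetected before the molt and higher after it. They belong to the 3451 models in the expression table that lie outside the 15278 computationally predicted genes. In the files each such model carries a prefix and a number in place of a gene name, and it is called here by that number. The 42 models, of 18729 in all, were chosen by their measured values in FPKM. FPKM here means fragments counted on a model, set relative to its length and to 1 factor per library. That factor did not follow the number of fragments in the library alone, as given below. Each of the 42 had a mean of 20 or more FPKM over the post-molt libraries. Its smallest post-molt value was also at least 4 times its largest pre-molt value. Everything said below of their difference between the stages therefore describes how they were chosen and is not tested.

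The libraries came from muscle of healthy farmed juvenile crabs (mean weight 8.41 ± 1.47 g in the labels), which were kept at a controlled water temperature under natural light, were anaesthetised on ice and had no experimental treatment that the labels name. Each library came from the muscle of a different crab. Post-molt crabs (A stages) had shed the old shell, and pre-molt crabs (D stages) had not yet done so. Each stage had 3 libraries. Between 4168744 and 5117144 fragments were recovered per post-molt library, and between 5810068 and 6768310 per pre-molt library.

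Crustaceans grow by molting, which steroid hormones (ecdysteroids) drive, and the animal must loosen its muscles from the old shell, withdraw them and attach them to the new one. A gene model outside the predicted set is taken here as a transcribed stretch placed on the genome that the gene prediction had not held. The sources used here do not give how these models were built. In general such models can be missed coding genes, untranslated parts of known genes, or RNAs that code for no protein, and the files do not say which of these any of the 42 is. In bulk tissue, a higher level per cell and more cells that make an RNA cannot be told apart. None of the 42 carried a gene name, and 0 gene IDs matched the reference gene table, so markers of muscle and of cuticle, blood cells or other tissues could not be checked.

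The 42 models spanned more than 3 orders of magnitude after the molt. Mean post-molt levels were 10000 FPKM or more in 3 models, 1000 FPKM or more in 9, between 100 and 1000 FPKM in another 9, and below 100 FPKM in 24. Before the molt, 10 had no fragment in any library, 11 were detected at a mean below 1 FPKM, 19 lay between 1 and 10 FPKM, and 2 were above 10 FPKM. The ratio of mean post-molt to mean pre-molt FPKM was above 1000 in 9 of the 32 detected models, between 100 and 1000 in 9, and at most 100 in 14. It ran from 7.31 to 8935, and the median over all 42 was 189 with undetected models set to their lower bounds on this scale. These ratios rest on the deposited scale of FPKM, on which post-molt libraries sum to 2.51 times the pre-molt libraries on average, and with the libraries at a common sum the ratios of the detected models ran from 2.82 to 3443.

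**Figure D1:**
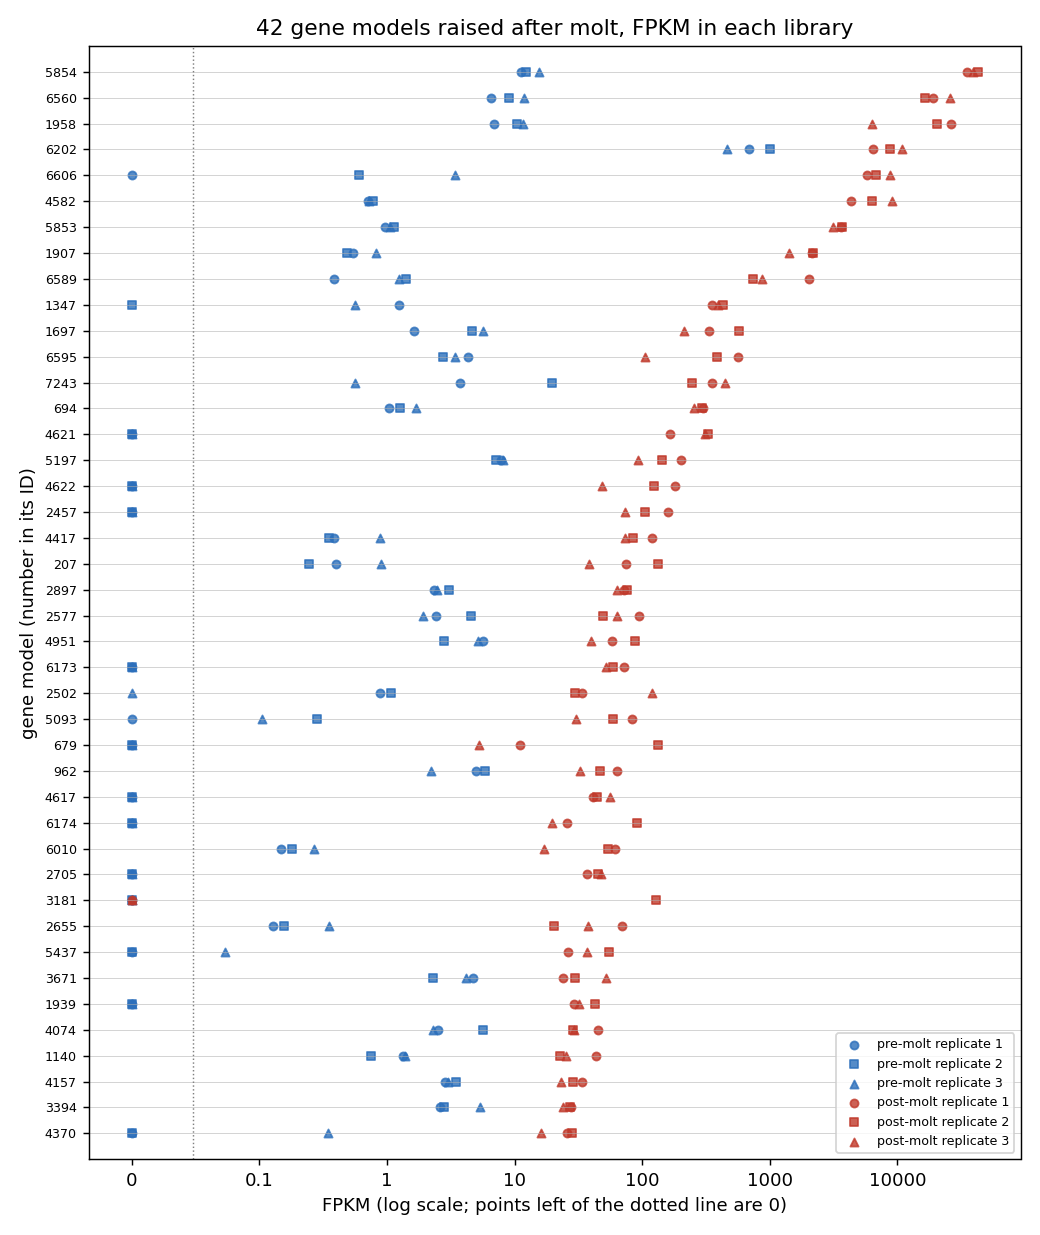
FPKM of the 42 gene models in each of 6 libraries, on a log axis with zeros drawn left of the dotted line. Models are ordered by mean post-molt level, red marks post-molt and blue marks pre-molt libraries, and symbols mark the replicates. The stages are apart in every model except 3181, which was at 0 in 2 post-molt libraries, and the 10 models with all pre-molt points at 0 lie below the 14 most abundant.

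The most abundant was model 5854, 1166 bases long on chromosome CM024158.1. It was at 35270, 42891 and 38994 FPKM in post-molt replicates 1, 2 and 3, and at 11.2, 12.4 and 15.6 FPKM in the pre-molt replicates. Its means were 39052 ± 3811 and 13.1 ± 2.27 FPKM (SD, n = 3). This made it the 12th most abundant of all 18729 genes after the molt and the 3736th before it. The post-molt crabs lay close together. Its neighbour in number, model 5853 on the same chromosome and 4575 bases long, was at 3608, 3694 and 3136 FPKM after and 0.969, 1.13 and 1.06 FPKM before the molt. Model 5854 stood at 9.78, 11.6 and 12.4 times the FPKM of model 5853 in the post-molt libraries and at 11.6, 10.9 and 14.7 times in the pre-molt libraries. The pre-molt proportions rested on 59, 53 and 90 fragments of model 5854 and on 20, 19 and 24 of model 5853. On these counts the proportion between the neighbours was of similar size in both stages. The ratios of mean post-molt to mean pre-molt FPKM were 2992 for model 5854 and 3306 for model 5853.

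Models 6560 and 6606, both on chromosome CM024166.1, also ranked high. Model 6560, 1390 bases long, was at 19060, 16545 and 25750 FPKM after and 6.54, 8.99 and 11.8 FPKM before the molt. Model 6606, 893 bases long, was at 5738, 6791 and 8690 FPKM after the molt, and its pre-molt values of 0, 0.609 and 3.39 FPKM rested on 0, 2 and 15 fragments. In both models post-molt replicate 3 was the highest. Model 1958, 836 bases long on CM024112.1, was instead lowest in replicate 3, with 26115, 20286 and 6320 FPKM after the molt and 6.90, 10.4 and 11.6 FPKM before it. The lowest of these post-molt values was still 545 times the highest pre-molt value.

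Model 4582, 2796 bases long on CM024138.1, had the largest ratio of means of the 32 detected models, at 8935. It was at 4331, 6320 and 9128 FPKM after the molt and 0.714, 0.778 and 0.722 FPKM before it, values that rested on 9, 8 and 10 pre-molt fragments. Model 1907, 6152 bases long on CM024112.1, was at 2148, 2177 and 1407 FPKM after and 0.541, 0.486 and 0.821 FPKM before. These levels are per kilobase, so the long models 1907 and 5853 stand lower in the order than their fragments alone would place them: model 1907 drew 49373 post-molt fragments and model 6606, with the higher FPKM, 25330.

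Model 6202, 2051 bases long on CM024163.1, differed from the other abundant models in being well expressed before the molt. Its pre-molt values were 690, 1009 and 460 FPKM, and its post-molt values were 6449, 8704 and 10823 FPKM. The ratio of means was 12.0, and the model ranked 205th of all 18729 genes before the molt and 97th after it. In the pre-molt libraries it alone held 82.6% to 90.6% of the FPKM of the 42 models, against 5.94%, 7.76% and 10.02% in post-molt replicates 1, 2 and 3.

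The 42 models together held 3.91%, 3.28% and 2.88% of all FPKM in post-molt replicates 1, 2 and 3, and 0.0558%, 0.0761% and 0.0499% in the pre-molt replicates. The mean share was 3.36% ± 0.523 after and 0.0606% ± 0.0138 before the molt (SD, n = 3). Models 5854, 6560 and 1958 made up 74.1%, 71.1% and 65.8% of that post-molt sum, so the other 39 held 0.981% ± 0.0319 of all FPKM. The 24 models below 100 FPKM held 0.0360% ± 0.00974.

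All 3451 models outside the predicted set held 5.87%, 5.26% and 6.50% of FPKM in the post-molt libraries and 5.10%, 5.07% and 5.37% in the pre-molt libraries, values that overlap. The share of this class as a whole was thus similar in both stages. Without the 42, the other models of the class held 1.95%, 1.98% and 3.62% after the molt and 5.04%, 4.99% and 5.32% before it. In deposited FPKM, the same thresholds applied in the opposite direction chose 9 models of the class. They held 1.53% ± 0.0977 of FPKM before and 0.00217% ± 0.00227 after the molt. Both ways of splitting the class follow from how the models were chosen and were not tested.

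**Figure D2:**
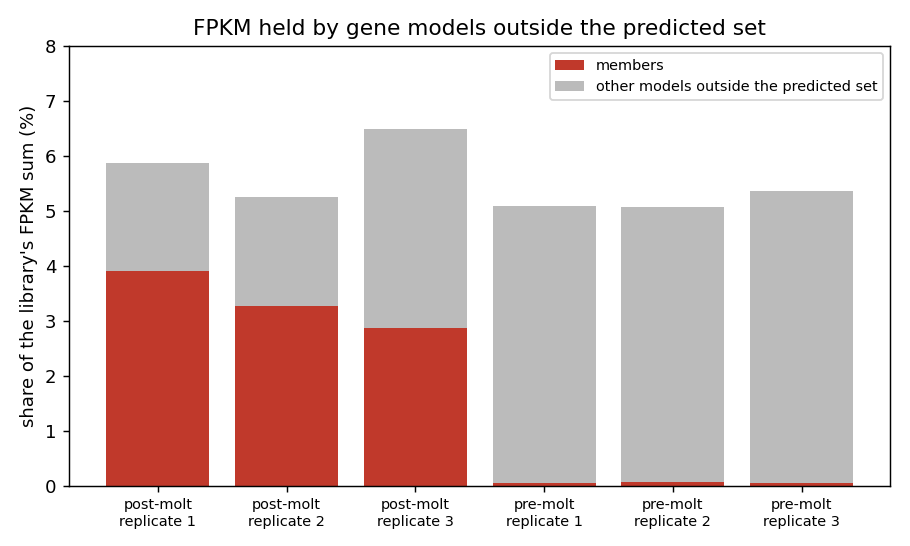
Share of each library's FPKM sum held by gene models outside the predicted set, in percent, with the 42 raised models in red and all others in grey, stacked. The red part is 2.88% to 3.91% in the 3 post-molt libraries and at most 0.0761% in the 3 pre-molt libraries, while the height of the whole bar stays between 5.07% and 6.50%.

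Before the molt, 10 of the 42 models were without a fragment in all 3 libraries. The pre-molt libraries held 1.38 times as many fragments on average. In the deposited FPKM, 1 fragment of a model of 1000 bases was worth 0.202 to 0.272 FPKM there and 0.568 to 0.856 FPKM in post-molt libraries, a gap of 3.25 times between the means that was larger than the difference in depth. Bounds for these models are therefore given at a common FPKM sum, with those on the deposited scale beside them, a choice made after seeing the data. The most abundant of the 10 was model 4621, 507 bases long on CM024138.1, at 166, 327 and 309 FPKM after the molt, or 148, 198 and 183 fragments. Against a floor of 3 fragments over the pre-molt group, it was at least 228-fold higher at a common FPKM sum, and the bound was 584-fold in deposited FPKM. Its neighbour in number, model 4622, 599 bases long, was at 180, 123 and 48.6 FPKM, at least 129-fold above its floor (303-fold in deposited FPKM). Neither was detectable before the molt at this depth. After it, model 4622 was at 1.09, 0.376 and 0.157 times the level of model 4621 in replicates 1, 2 and 3, so their proportion differed among crabs. Model 4620, next to them in number and listed on the same chromosome, also had no pre-molt fragment, but at 14.5, 23.1 and 0.910 FPKM after the molt it stayed under the minimum level.

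Models 6173 and 6174 on CM024162.1 were another pair of consecutive numbers with no pre-molt fragment. Model 6173, 2923 bases long, was at 72.3, 59.3 and 51.8 FPKM after the molt, at least 317-fold above its floor (771-fold in deposited FPKM). Model 6174, 1303 bases long, was at 25.7, 91.2 and 19.7 FPKM and was carried mainly by replicate 2. Model 2457, the shortest of the 10 with a listed length at 421 bases, on CM024117.1, was at 158, 105 and 73.2 FPKM and at least 85.6-fold above its floor (204-fold in deposited FPKM).

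Models 4617, 2705 and 1939 were detected in all 3 post-molt libraries on 224, 120 and 71 fragments. In the 9 undetected models with signal in every post-molt library, the floor of 3 fragments was worth 0.0793 to 0.551 deposited FPKM. The lower bounds of the ratio ran from 30.4 to 317 at a common FPKM sum, from 32.6 to 347 in fragments relative to all recovered fragments of the stage, and from 75.9 to 771 in deposited FPKM. The median length was 688 bases in the undetected models with a listed length and 1626 bases in the detected ones. At the same FPKM a shorter model yields fewer fragments and so is more easily at 0. The undetected models were also lower after the molt, with a median level of 48.5 FPKM against 87.3 FPKM in the detected ones. What this difference in length reflects was not tested. Of the other detected models, 4 had only 1 to 3 pre-molt fragments. One of them, model 5437, was at 26.3, 54.9 and 36.8 FPKM after the molt, and its ratio of 2173 in deposited FPKM rested on 1 pre-molt fragment, with an exact Poisson 95% interval of 390 to 85829 that covers the counting error of the pre-molt fragments only.

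Model 3181 met the rule through zeros alone. It was at 129 FPKM in post-molt replicate 2 and at 0 in the other 5 libraries, so its smallest post-molt value was 0, as was its largest pre-molt value. It was the only 1 of the 42 that the authors' comparison table does not list, and its length is therefore known only as a value of 363 bases or a multiple of it, at which its fragments numbered 56 or the same multiple. Requiring a value above 0 in every post-molt library, a condition added after seeing the data, left 41 models.

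**Figure D3:**
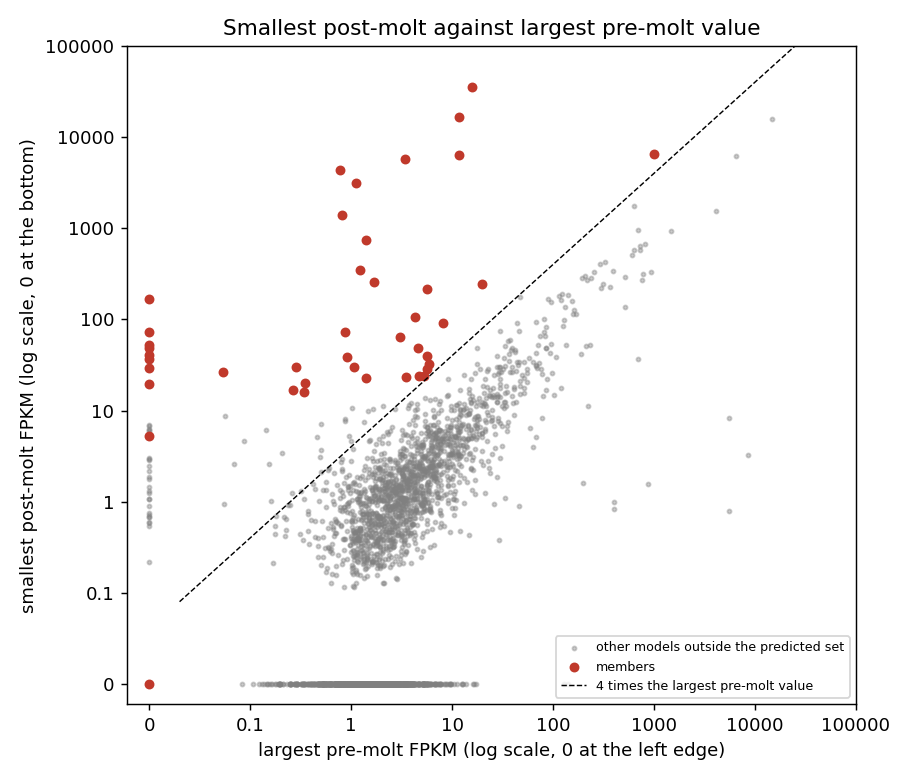
Smallest post-molt FPKM (vertical axis) against largest pre-molt FPKM (horizontal axis) for the 3451 models outside the predicted set, on log axes with zeros drawn at the left edge and at the bottom. Red points are the 42 chosen models and the dashed line marks 4 times the largest pre-molt value. Model 3181 lies in the corner where both values are 0, and model 6202 is the red point near 1009 FPKM on the horizontal axis.

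Near the fold threshold, models 3394, 3671 and 4074 were just inside, with smallest post-molt values 4.47, 5.03 and 5.08 times the largest pre-molt value. Models 6169, 2610 and 3949 were just outside at 3.82, 3.74 and 3.08 times. Model 2610 shows what the rule leaves out, since it averaged 213 FPKM after the molt with a largest pre-molt value of 47.1 FPKM. Near the minimum level, models 4370, 3394 and 4157 were just inside at means of 23.3, 26.1 and 28.4 FPKM. Models 990, 3206 and 2412 were just outside at 19.9, 19.4 and 19.1 FPKM, and model 3206 had no pre-molt signal.

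The number of models that meet the rule depended on how the libraries were scaled. After rescaling the libraries to the same FPKM sum, 33 of the 42 met the rule and 0 others did. Model 4370 dropped out on its level alone. Models 6202, 5197, 4951, 962, 3671, 4074, 4157 and 3394 dropped below the 4-fold limit, with the lowest at 1.33 times for model 3394, so all of them stayed above their largest pre-molt value. The median ratio of means over the 42 was 70.0 under that scaling. In model 5197, the longest at 7507 bases on CM024147.1, the deposited values were 201, 143 and 92.1 FPKM after and 7.83, 7.13 and 8.07 FPKM before the molt.

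Across all 17465 genes tested by limma with Benjamini-Hochberg adjustment, 1036 were called higher in post-molt muscle (5.93%), and 41 of the 42 models were among them. Model 3181 was not called. With edgeR on recovered fragments, 1533 genes were called higher (8.78%), including all 42. Since the rule used the same contrast, these counts follow from the choice of the models.

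The spread among post-molt crabs differed widely between models. The coefficient of variation over the 3 post-molt libraries had a median of 33.5% and ran from 7.59% to 173%. In deposited FPKM the steadiest were model 3394 (27.5, 27.0 and 23.8 FPKM), model 5853 (8.63%) and model 694, 1077 bases long on CM024101.1 (300.2, 296 and 254 FPKM). Model 3394 rested on 33, 22 and 19 post-molt fragments, too few to show steadiness beyond counting error. At a common FPKM sum these models spread more, at 23.0, 18.3 and 14.7 FPKM (3394), 3016, 2501 and 1936 FPKM (5853) and 251, 201 and 157 FPKM (694). The median coefficient of variation of the 42 was then 38.6%. The most variable were model 3181, model 679 on CM024101.1 (11.1, 134 and 5.22 FPKM) and model 6174, each of which was highest in post-molt replicate 2. Model 2502, the shortest of the 42 with a listed length at 252 bases, was highest in replicate 3 at 119 FPKM against 33.8 and 29.9 FPKM, on 35, 15 and 9 fragments. The highest post-molt value was more than 2 times the lowest in 18 models and more than 5 times in 2, and model 3181 has no such ratio.

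No crab was highest throughout. The highest value lay in post-molt replicate 1 for 18 models, in replicate 2 for 15 and in replicate 3 for 9, and replicate 3 was the lowest for 22 of the 42. Of the 9 models at 1000 FPKM or more, 2, 3 and 4 were highest in replicates 1, 2 and 3, and of the other 33 models 16, 12 and 5. The 351 predicted genes that met the same thresholds had a median coefficient of variation of 34.8%, and 58.1% of them were highest in replicate 1. The rule limits how low a post-molt value can fall, so a lower spread in chosen models can follow from the choice. The other 210 models outside the predicted set with a mean post-molt level of 20 FPKM or more had a median coefficient of variation of 50.0%, and 57.1% of them were highest in replicate 3. All 3189 other genes at that level had a median of 29.2%, and 32.3% were highest in replicate 3. Replicate 1 was highest for 41.5% of these 3189 and replicate 3 lowest for 49.5%, close to the 42.9% and 52.4% of the 42. At a common FPKM sum, 27, 9 and 6 of the 42 were highest in replicates 1, 2 and 3, so this order also depended on the scaling. Replicate 1 was then highest for 64.3% of the 42 and for 63.3% of the 3189 other genes. In the 26 models above 0 in all 6 libraries, the median coefficient of variation was 32.7% before and 33.5% after the molt.

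**Figure D4:**
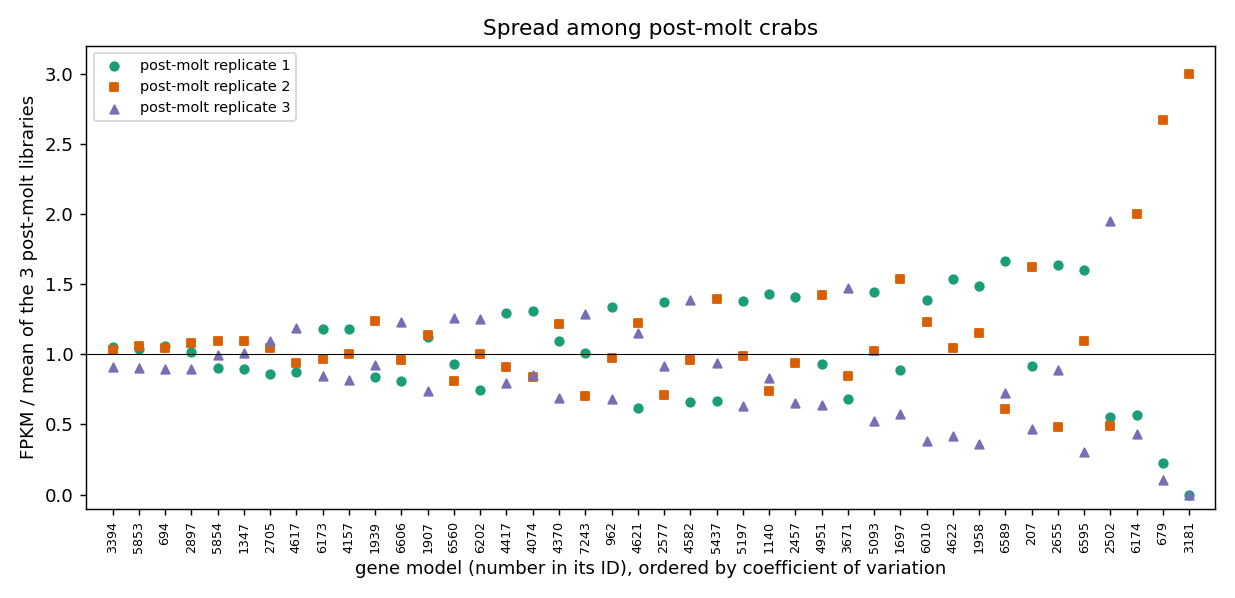
FPKM of each of the 42 models in the 3 post-molt libraries divided by the mean of those libraries, with models ordered from the lowest to the highest coefficient of variation. Points near 1 at the left are models with similar deposited FPKM in every crab, and the points above 2.5 at the right are models 679 and 3181 in post-molt replicate 2.

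Length and place were listed for 41 of the 42. Gene length ran from 252 to 7507 bases with a median of 1303, beside a median of 1414 in the 212 other listed models outside the predicted set and 999 in the 348 listed predicted genes that met the same thresholds. Lengths were a multiple of 3 in 24.4% of the 41, in 31.1% of the 212 other listed models outside the predicted set and in 63.7% of all 1431 listed predicted genes. The table lists only genes that passed the authors' own test, so these are not lengths of whole classes.

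The 41 placed models lay on 29 sequences of the assembly, 22 of which held 1 each. Chromosomes CM024138.1 (models 4582, 4617, 4621 and 4622) and CM024166.1 (models 6560, 6589, 6595 and 6606) held 4 each, and CM024112.1 held 3 (models 1907, 1939 and 1958). Start and end positions were not used here, but the numbers group by sequence: along the numbers of the 253 listed models outside the predicted set, the sequence changed 75 times over 76 sequences. Each sequence thus held 1 unbroken block of numbers, and whether the order of numbers within a sequence follows position was not tested. Consecutive numbers joined 3 pairs of the 42, namely 4621 and 4622, 5853 and 5854, and 6173 and 6174.

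The other models next in number were mostly low after the molt, as was the class. For 35 of the 42 at least 1 neighbouring number was in the expression table, and 44 such neighbours were not themselves among the 42. Their median level was 1.79 FPKM after and 0.995 FPKM before the molt, beside medians of 1.30 and 1.27 FPKM over all 3451 models outside the predicted set. The median of the neighbours was thus higher after the molt, while those of the class were close, a difference that was not tested. Neighbours below 20 FPKM after the molt went both ways. Model 5198 averaged 17.0 FPKM after and 3.51 FPKM before the molt, and model 2578 averaged 13.6 and 78.0 FPKM. After the molt 93.2% of these neighbours averaged below 20 FPKM, beside 92.7% of the class. Only 3 neighbours averaged 20 FPKM or more. Model 6175, beside 6174, was at 38.1, 20.5 and 13.2 FPKM after and 3.14, 6.82 and 4.03 FPKM before the molt. Model 6011, beside 6010, was at 37.7 and 37.3 FPKM on average and model 4950, beside 4951, at 21.7 and 18.3 FPKM, levels that were similar in both stages.

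Among predicted genes the same thresholds chose 351. That was 11.8% of the 2979 predicted genes with a mean post-molt level of 20 FPKM or more, beside 16.7% of the 252 models outside the predicted set at that level. No pre-molt signal was found for 36 of the 351 (10.3%), beside 10 of the 42 (23.8%). The opposite thresholds chose 25 predicted genes, or 0.980% of the 2550 at 20 FPKM or more before the molt, beside 9 of 170 (5.29%). Whether these shares differ was not tested, since the rule that sets them uses the values themselves.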

How the data were processed

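RNA-seq of muscle was analysed in 3 post-molt and 3 pre-molt libraries, grouped by sample titles. According to the methods and the submitters' processing notes, reads were aligned with HISAT2 2.0.5 and unique fragments counted with featureCounts 1.5.0-p3. The sources used here give neither how models outside the predicted set were built nor whether strand was used in counting, so a model that overlaps another gene cannot be told apart from it by strand. The authors deposited FPKM for 18729 genes, all reaching 1.00 in some library. The authors also deposited, for 1684 genes that passed their comparison, a normalized signal (counts over a size factor), the gene length and chromosome (other annotation), and their log2 fold changes and p-values (p-value columns), which were not used. FPKM columns carry another tissue prefix than the labels, but equalled the muscle columns of the same stage and number up to 1 factor per library and gene length.

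Whole fragments were recovered from the step of each normalized column (100% whole within 0.001) and from the gene length, found as the smallest length that made all 6 values whole. This gave 98.6% of the 1684 listed lengths exactly. Stage differences were fitted over all genes with limma 3.58.1 (R 4.3.3, moderated variances with trend) on log2(FPKM + 1), mean FPKM of 0.5 or more, called at an adjusted p of 0.05 and an absolute log2 fold change of 1. The fits and the recovery were tested on simulated data. For the fits, simulated FPKM were scaled by the fragments of each library alone, so the stage difference in FPKM scale given above was not covered. Alternatives were edgeR 4.0.16 and DESeq2 1.42.0 on recovered fragments, a replicate block, pseudocounts, filters, scalings, other limits in the rule and leaving out each library. The tissue markers could not be run for want of gene names, and the named-gene rule for models within 20 kb could not be applied. Otherwise the models named are those highest in level, in ratio and among undetected models, the most and least variable, the longest and shortest, and those at the thresholds. Further models were named after their values were seen. The models, lists and rules were chosen with earlier results of these data known. Each library is 1 crab, and intervals and floors cover counting error only.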

Additional observations from a re-analysis of the deposited data

How the results depend on the processing

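Of 69 alternatives, 58 kept the value within 1.5 times, or for the share of FPKM within 1 SD. A common FPKM sum called 8050 genes in place of 1316, with 7376 of them lower after the molt and 674 higher. The median log2 fold change over all genes was then −1.04 in place of −0.09. That median was −0.07 both with edgeR and with DESeq2 on recovered fragments. The common FPKM sum also lowered the median ratio of means to 70.0 and left 9 models highest in post-molt replicate 2. The lowest bound of the undetected models fell from 75.9 to 30.4 (32.6 in recovered fragments). Comparing means in place of extremes gave 97 models, and a minimum mean of 50 FPKM gave 27. The 42 held 5.02% of recovered post-molt fragments, and without the 3 most abundant, an alternative added after seeing the data, 0.981% of FPKM. Leaving out 1 library gave 783 to 1406 called genes, lowest without pre-molt replicates 1 (783) and 3 (803), 40 to 41 of the 42 called, 42 to 52 models meeting the rule, 10 to 12 undetected before the molt, a share of 3.08% to 3.60% and a median ratio of 153 to 221. edgeR called 1974 genes and DESeq2 1672, with 2052 left without an adjusted p. Causes of the other shifts were not tested.

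Same-numbered libraries did not pair: their deviations correlated at −0.03, −0.03 and −0.05. The fit with the replicate block called 1003 genes, 976 of them shared with the calls without it, and 41 of the 42. Shallower post-molt libraries limit low models there.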

Other observations

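The pre-molt signal of the abundant models was a small fraction of their post-molt signal in all but model 6202. Among the 9 models at 1000 FPKM or more after the molt, the pre-molt libraries together held 0.0374% to 0.240% as many fragments as the post-molt libraries in 8, from model 4582 to model 6589, and 26.5% in model 6202. The cause was not tested.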
